A study of Aedes albopictus with 6 samples.

Results

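A set of 5 genes of the Asian tiger mosquito *Aedes albopictus* that carry no functional description is followed here through an RNA-seq study of the ovary. They are LOC109425670, LOC115253462, LOC115264401, LOC115253714 and LOC115254173, 5 of the 34479 rows of the deposited count table, and each is described there only as uncharacterized. They were picked by name because their counts differed between the groups in these same libraries, so their differences are given as descriptions, and fitted values or calls of these genes carry no weight as tests. One group is ovaries with Aalpi18529 overexpression, and the series' design text says that mimics of this PIWI-interacting RNA (piRNA) were given. The other group is ovaries labelled control, and each group had 3 libraries. What the controls received, the strain, the age of the females, the time after the blood meal and the number of females per library are not stated in the labels used here. The study asks how Aalpi18529 acts on the ovary after a blood meal.

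Many genes of a mosquito genome are predicted by software from sequence and read evidence, and those without a recognisable relative are described as uncharacterized. When 2 predicted genes lie on the same stretch of a scaffold, or when near-identical copies exist, a counting program has to decide which of them receives a read. Argonaute-2, which encloses a pair of the genes below, encodes the slicer protein of the small interfering RNA pathway and is known in mosquitoes for defence against viruses. It is distinct from the PIWI-family proteins that carry piRNAs.

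The libraries were of similar depth, with 15719412 to 16111124 estimated counts in overexpression libraries and 15919841 to 16465531 in controls. The 15 germline marker genes (vasa, nanos, oskar and aubergine) had counts in every library, and their summed level was 7716 to 7998 CPM (counts scaled to a common library size) with overexpression and 7626 to 7939 CPM in controls. Markers of other tissues were also read. The summed level of 39 muscle genes, 35 of them above 0 in every library, was 1546 to 1572 CPM with overexpression, below the 1623 to 1720 CPM of the controls. That of 17 fat body genes, 16 of them above 0 in every library, was 271 to 328 CPM with overexpression, above the 233 to 266 CPM of the controls. That of 128 midgut genes, 30 of them above 0 in every library, was 24.5 to 32.3 CPM with overexpression and 28.1 to 48.3 CPM in controls, and the groups overlapped. The part of these tissues in the levels below was not tested, and in whole ovaries fewer cells of a type and less RNA per cell cannot be told apart.

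**Figure D1:**
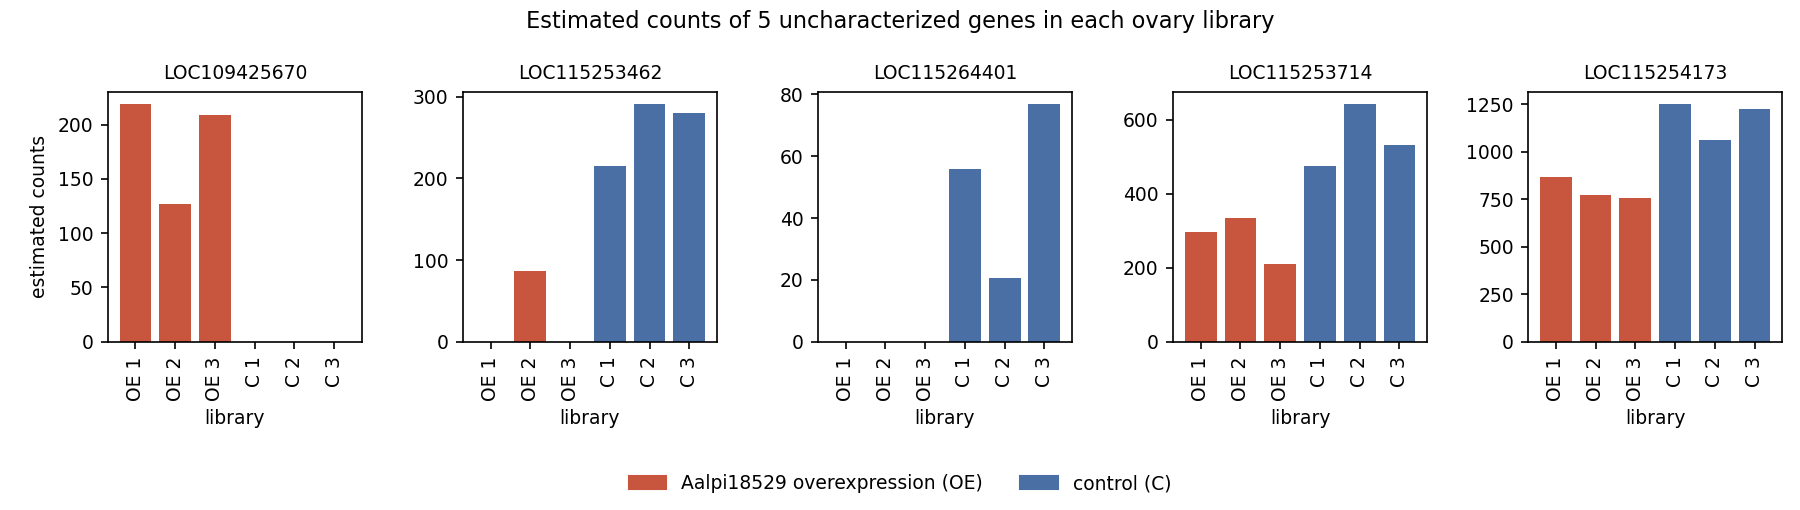
Estimated counts (y axis, linear, a separate scale per panel) of the 5 genes in each of 3 Aalpi18529 overexpression (OE) and 3 control (C) libraries (x axis). LOC109425670 has counts in overexpression libraries alone and LOC115264401 in controls alone, while the other 3 are lower in each overexpression library than in each control.

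LOC109425670 was read in overexpression ovaries and had no count in controls. It had 219.4, 126.76 and 208.87 estimated counts in overexpression libraries 1, 2 and 3, against 0, 0 and 0 in control libraries 1, 2 and 3. All 3 overexpression libraries were thus above all 3 controls, with library 2 the lowest of its group. On the scaled level it averaged 11.7 ± 3.21 CPM with overexpression and 0 CPM in controls (SD, n = 3 each). Against a floor of 3 counts over the whole control group (0.0614 CPM), this is at least 189.6-fold higher.

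LOC115253462 had the opposite distribution. It had 0.05, 86.23 and 0 estimated counts in overexpression libraries 1, 2 and 3, against 214.84, 291.38 and 280.39 in control libraries 1, 2 and 3. The groups did not overlap, and overexpression library 2, the one with the lowest LOC109425670 count, was the only overexpression library with more than 1 count. It averaged 1.79 ± 3.11 CPM with overexpression and 16.1 ± 2.23 CPM in controls (SD, n = 3 each). The overexpression mean came from library 2 alone.

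These 2 genes occupy the same place. The table puts LOC109425670 (gene ID 109425670) on scaffold NW_021837489.1 at positions 43643768 to 43660913 and LOC115253462 (gene ID 115253462) on the same scaffold at 43643768 to 43660909. They share their start and differ by 4 bases at the end, so the shared stretch is 99.98% of the longer span of 17146 bases. Each is listed with 1 predicted mRNA (transcript class XM), and the 2 transcripts have different identifiers. Strand and exons are not columns of the table, so whether the 2 transcripts share exons was not tested. The estimates were whole numbers for LOC109425670 in its 3 empty controls only, and for LOC115253462 in overexpression library 3 only, which was at 0. Every library above 0 therefore held a fractional estimate, which can arise when a read is divided among genes. LOC115253462 was fractional in each control, where LOC109425670 was at 0. Fractional estimates were common, in 64.3% of all genes with values, and the counting program is not stated. The decimals of the 2 counts added together were complemented, to rounding, in every library by those of the uncharacterized gene LOC109413547. It lies 508571 bases to the right of LOC109425670. In control library 1, for example, the values were 214.84 for the pair and 411.16 for LOC109413547. How reads were divided among these genes was not tested.

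Added together, the counts at this place no longer separated the groups. The sums were 219.45, 212.99 and 208.87 estimated counts in overexpression libraries 1, 2 and 3, and 214.84, 291.38 and 280.39 in control libraries 1, 2 and 3. Control library 1 lay between the overexpression libraries, and control libraries 2 and 3 lay above them. The summed level was 13.5 ± 0.145 CPM with overexpression and 16.1 ± 2.23 CPM in controls (SD, n = 3 each), or 83.7% of the control. LOC109425670 took 99.98%, 59.5% and 100% of the sum in overexpression libraries 1, 2 and 3, and 0% in each control. The group means of the single entries thus differed by 11.7 and -14.3 CPM (overexpression minus control), and that of the sum by -2.62 CPM. This sum leaves out LOC109413547, whose decimals complemented it. That gene had 495.56, 477.01 and 441.13 estimated counts in overexpression libraries 1, 2 and 3. Control libraries 1, 2 and 3 had 411.16, 324.62 and 395.61. Each overexpression library was thus above each control there, opposite in direction to the mean difference of the sum. A sum with this gene was not tested.

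**Figure D2:**
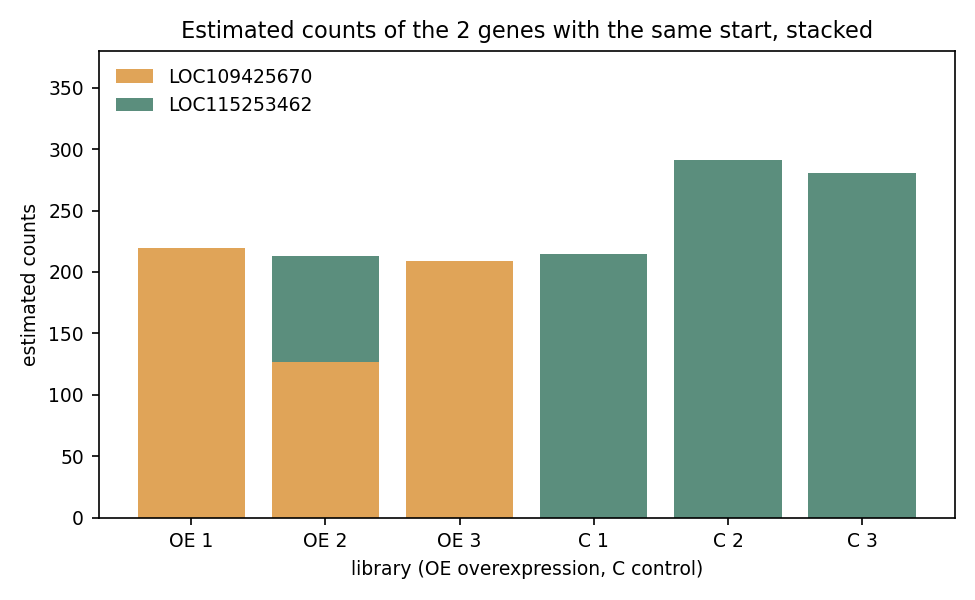
Estimated counts (y axis) of LOC109425670 and LOC115253462 stacked for each of 3 overexpression (OE) and 3 control (C) libraries (x axis). The bars are filled by LOC109425670 in overexpression libraries 1 and 3, by both genes in overexpression library 2 and by LOC115253462 in the controls, at total heights of 209 to 219 counts with overexpression and 215 to 291 counts in controls.

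The number of calls over the whole table depended on whether such rows were summed, through LOC109425670 itself. The edgeR quasi-likelihood fit covered 15540 genes and called 2 of them (0.0129%) at a Benjamini-Hochberg limit of 0.05, and LOC109425670 was among them. When rows whose spans share at least 90% of the longer span were summed before the test, an alternative chosen after the positions were seen, 1 of 15538 rows passed, and it was the small heat shock gene LOC109422434. The summed row of LOC109425670 and LOC115253462 then had a log2 fold change of -0.26 ± 0.13 (SE), against 10.55 ± 0.64 for LOC109425670 alone, a fitted value that depends on the prior count because the controls are at 0. Of the 5 genes, edgeR called 1 and DESeq2 called 4, where DESeq2 called 0.0652% of the 22995 genes to which it gave an adjusted p. These calls use the contrast by which the genes were picked, and no weight is put on them.

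Rows that coincide in this way were rare. Among 23529 genes with values, 4460 (19.0%) had a span that overlapped another such gene, but 6 pairs shared at least 90% of the longer span. In 3 of the 6 the pair held at least 50 counts in every library. The share of the pair's counts assigned to the first gene ranged over 100 percentage points between libraries for LOC115253462 and LOC109425670. It ranged over 14.3 points for a pair of SPO11-like meiotic recombination genes (LOC115258121 and LOC115258120). It ranged over 6.25 points for the coronin-7-like gene LOC109428491 and LOC115253714, which is the fourth gene described here. With a limit of 50% of the longer span there were 77 pairs. One of them, the uncharacterized LOC115254265 and LOC115270462, shares a start and had at least 74.36 counts in every library. Its share ranged over 41.2 points.

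The pair sits inside the gene for argonaute-2. The span of LOC109425656 (protein argonaute-2, 8 predicted transcripts) runs for 118910 bases from 43590442 to 43709351 on NW_021837489.1, and both uncharacterized genes begin 53326 bases after its start. They cover 14.4% of that span. Argonaute-2 itself had 2266.93, 2640.41 and 2269.3 estimated counts in overexpression libraries 1, 2 and 3, against 2119.36, 2431.5 and 2777.61 in control libraries 1, 2 and 3, and the groups overlapped. Its level was 151 ± 12.9 CPM with overexpression and 150 ± 17.4 CPM in controls (SD, n = 3 each), a fitted log2 difference of 0.01 ± 0.10 (SE; edgeR adjusted p 0.998.) A further gene described as argonaute-2-like, LOC109413546, lies 1290426 bases to the left of the pair. It stood at 169 ± 4.18 CPM with overexpression and 164 ± 13.8 CPM in controls (SD, n = 3 each), a fitted log2 difference of 0.04 ± 0.07 (SE; edgeR adjusted p 0.974.) Both argonaute-2 genes had fractional estimates in each of the 6 libraries. Their decimals complemented each other in every library, as with 2266.93 and 2708.07 in overexpression library 1. The 2 levels may therefore not be independent of each other, and how their reads were divided was not tested.

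**Figure D3:**
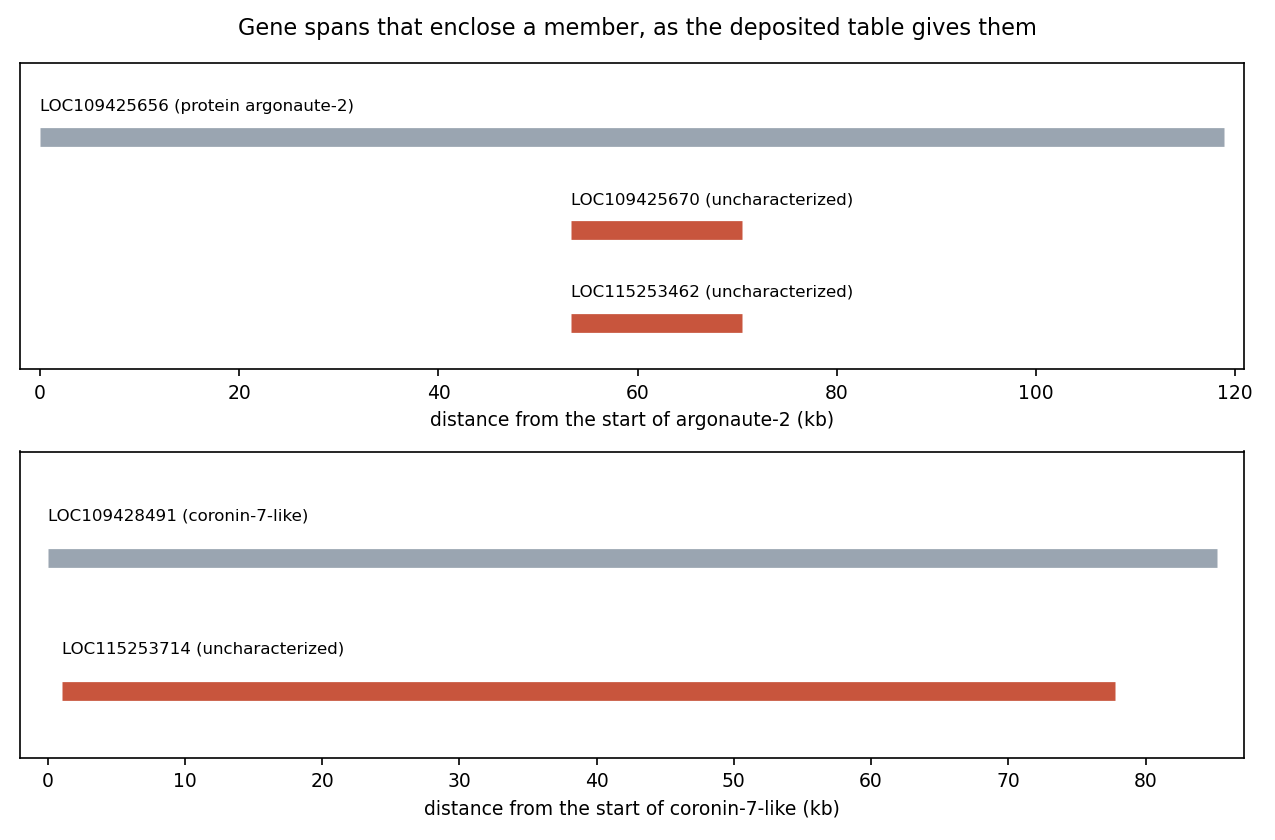
Gene spans as bars, drawn to scale by distance in kilobases (x axis) from the start of the enclosing gene, argonaute-2 in the upper panel and coronin-7-like in the lower. LOC109425670 and LOC115253462 cover the same 17 kb inside argonaute-2, and LOC115253714 covers 90.1% of the coronin-7-like span.

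Outside argonaute-2, the nearest gene on the right was not called and the nearest on the left was too low to be tested. On the right, 111614 bases away, pantothenate kinase 3 (LOC109413550), an enzyme of coenzyme A synthesis, stood at 30.2 ± 8.06 CPM with overexpression and 37.8 ± 11.2 CPM in controls (SD, n = 3 each; edgeR adjusted p 0.963). Its decimals complemented those of pantothenate kinase 3-like (LOC109425617) in every library, as with 469.9 and 1584.1 in overexpression library 1. How their reads were divided was not tested. On the left, lipase 3-like (LOC109413634) had at most 1 count in any library. A single library stood apart at the uncharacterized gene LOC109407901, named after its values were seen. It had 153.7, 1148.97 and 1237.81 estimated counts in overexpression libraries 1, 2 and 3, against 1191.02, 1253.36 and 1192.38 in control libraries 1, 2 and 3. Overexpression library 1 was far below the other 5 libraries, which lay close together.

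LOC115264401 (gene ID 115264401) was read in controls and had no count in overexpression ovaries. It had 0, 0 and 0 estimated counts in overexpression libraries 1, 2 and 3, against 55.85, 20.57 and 77.02 in control libraries 1, 2 and 3. The groups did not overlap, but the controls ranged widely, with library 2 the lowest. Its level averaged 0 CPM with overexpression and 3.15 ± 1.72 CPM in controls (SD, n = 3 each). Against 3 counts over the whole overexpression group (0.063 CPM), this is at least 50.1-fold lower. The estimates were fractional in each control.

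This gene lies on the short scaffold NW_021837834.1, at positions 1079499 to 1090151 (10653 bases, 1 predicted mRNA). No other gene with values has a span that overlaps it, and rows without values were not checked. Only 17 of the 29 rows on that scaffold had values. Its neighbour on the left, LOC115264393, described as SET and MYND domain-containing protein 4-like, lies 21388 bases away. It had 1.02, 3.1 and 1.03 estimated counts in overexpression libraries 1, 2 and 3 and 0 in each control, too few to be tested. Its neighbour on the right, LOC115264396, described as N-lysine methyltransferase SMYD2-A-like, belongs to the same broad family of SET and MYND domain proteins. It was abundant, at 201 ± 9.94 CPM with overexpression and 208 ± 12.6 CPM in controls (SD, n = 3 each), a fitted log2 difference of -0.05 ± 0.06 (SE; edgeR adjusted p 0.971.) The nucleolin-like gene LOC109408756, which lies 1834 bases away, had a lower level in each overexpression library than in each control. It stood at 3.35 ± 1.07 CPM with overexpression and 4.76 ± 0.452 CPM in controls (SD, n = 3 each), a fitted log2 difference of -0.51 ± 0.27 (SE; edgeR adjusted p 0.963.)

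Genes read in some libraries and near absent from others occurred elsewhere in the table. In 46 of 23529 genes (0.196%) at least 1 library had at most 1 count while another had 50 or more, and 3 of the 5 genes (LOC109425670, LOC115253462 and LOC115264401) were among these 46. Of the 46, 21 were described as uncharacterized, where 6432 of 23529 genes (27.3%) were so described, and 40 had a fractional estimate in at least 1 library. The 3 genes followed here count among both the 21 and the 40, and they were picked as uncharacterized genes that differ. Over the whole table, 15126 of 23529 genes (64.3%) had a fractional estimate. Just 3 genes (0.0128%) had at most 1 count in every library of one group and at least 10 in every library of the other. These 3 were LOC109425670, LOC115264401 and the serine protease 7-like gene LOC115257555, named after its values were seen.

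LOC115253714 (gene ID 115253714) was lower with overexpression but present in all libraries. It had 297.15, 334 and 211.19 estimated counts in overexpression libraries 1, 2 and 3, against 474.46, 643 and 530.81 in control libraries 1, 2 and 3. The groups did not overlap, with overexpression library 3 the lowest and control library 2 the highest. Its level was 17.6 ± 3.75 CPM with overexpression and 33.7 ± 4.88 CPM in controls (SD, n = 3 each), 52.3% of the control. The estimates were whole numbers in overexpression library 2 and control library 2 and fractional in the other 4.

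LOC115253714 lies on NW_021838798.1 at positions 62456935 to 62533662 (76728 bases, 2 predicted mRNAs). It falls wholly within LOC109428491, described as coronin-7-like, a member of a family of actin-binding proteins, whose span of 85176 bases begins 1060 bases earlier. The coronin-7-like gene had 26.98, 24.97 and 23.01 estimated counts in overexpression libraries 1, 2 and 3, against 26.93, 30.56 and 19.68 in control libraries 1, 2 and 3, and the groups overlapped. The fitted log2 difference was -0.02 ± 0.28 (SE; edgeR adjusted p 0.998.) The sum of these 2 entries kept the groups apart, at 19.2 ± 3.81 CPM with overexpression and 35.3 ± 5.07 CPM in controls (SD, n = 3 each), and LOC115253714 held most of its counts. The summed row had a log2 fold change of -0.88 ± 0.16 (SE), against -0.93 ± 0.17 for LOC115253714 alone. This sum covers the 2 entries at this place only and leaves out the genes named next. A like arrangement begins at position 61438116 of the same scaffold, where coronin-7-like LOC115256839 and uncharacterized LOC109428489 share 85.1% of the longer span. Together they had 3384.87, 3107.03 and 3519.8 estimated counts in overexpression libraries 1, 2 and 3. Control libraries 1, 2 and 3 had 3371.61, 3351.44 and 3619.51. These larger sums overlapped between the groups. Their decimals complemented those of the sum of LOC115253714 and LOC109428491 in every library, as with 3384.87 and 324.13 in overexpression library 1. The level of LOC115253714 may therefore depend on how reads were divided among these genes, which was not tested.

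Genes around LOC115253714 had lower fitted levels with overexpression as well, though none passed the limit. All 6 tested neighbours had a negative log2 fold change, from -0.73 to -0.02 with a median of -0.46, whereas the median over all 15540 genes tested was 0.00. The estimates of all 6 were fractional in every library, where 64.3% of all genes with values had a fractional estimate in at least 1 library. Whether these levels depend on how reads were divided was not tested. The 1 neighbour of LOC115253714 with an unadjusted p under 0.05 by edgeR was the adenomatous polyposis coli homolog LOC115256705, a scaffold protein that restrains Wnt signalling. It stood at 41.4 ± 8.85 CPM with overexpression and 57.9 ± 15.5 CPM in controls (SD, n = 3 each), a fitted log2 difference of -0.48 ± 0.21 (SE; edgeR adjusted p 0.963.) The gene next to LOC115253714 on the right, LOC109428487, encodes a broad-complex-like protein, a transcription factor of the ecdysone response. It stood at 8.57 ± 2.16 CPM with overexpression and 11.5 ± 3.15 CPM in controls (SD, n = 3 each), a fitted log2 difference of -0.43 ± 0.25 (SE; edgeR adjusted p 0.963.) Of the 6 neighbours, 5 were highest in control library 2 and 4 were lowest in overexpression library 3, the same 2 libraries that bounded LOC115253714. The cause was not tested.

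**Figure D4:**
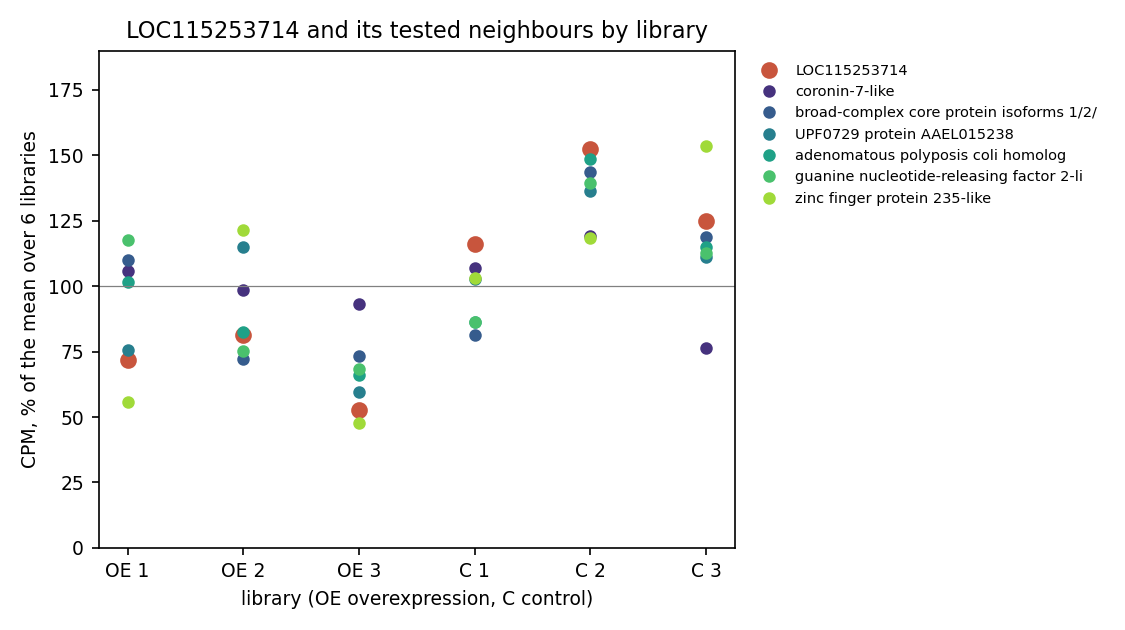
Level of LOC115253714 and its 6 tested neighbours in each library (x axis; OE overexpression, C control), as CPM in percent of each gene's mean over the 6 libraries (y axis). Points of LOC115253714 lie under 100% in all 3 overexpression libraries and above it in all 3 controls, while most neighbours are highest in control library 2 and low in overexpression library 3 with overlap between the groups.

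LOC115254173 (gene ID 115254173) had the most counts of the 5 and the smallest relative difference. It had 866.25, 771.23 and 757.2 estimated counts in overexpression libraries 1, 2 and 3, against 1251.82, 1058.82 and 1225.83 in control libraries 1, 2 and 3. Each overexpression library was below each control, and the 3 controls spread over about as many counts as separated the groups. Its level was 50.2 ± 3.13 CPM with overexpression and 72.5 ± 7.27 CPM in controls (SD, n = 3 each), 69.3% of the control, and the fitted log2 fold change was -0.53 ± 0.09 (SE). None of its 6 estimates was a whole number.

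LOC115254173 is on NW_021838310.1 at positions 329949 to 379762 (49814 bases, 1 predicted mRNA), a scaffold with 10 genes that had values. No other gene with values has a span that overlaps it. Its neighbours on both sides are likewise uncharacterized. LOC109429912 ends 284 bases before it and stood at 144 ± 9.83 CPM with overexpression and 142 ± 5.78 CPM in controls (SD, n = 3 each), a fitted log2 difference of 0.02 ± 0.07 (SE; edgeR adjusted p 0.992.) LOC115266498 begins 6534 bases after it and stood at 103 ± 5.53 CPM with overexpression and 109 ± 6.45 CPM in controls (SD, n = 3 each; edgeR adjusted p 0.963). Farther off, the cactus-like gene LOC115254172 encodes a relative of the inhibitor that holds NF-kappa-B factors in the cytoplasm. It stood at 54.1 ± 2.95 CPM with overexpression and 62.2 ± 4.88 CPM in controls (SD, n = 3 each), a fitted log2 difference of -0.20 ± 0.08 (SE; edgeR adjusted p 0.963), and the groups did not overlap.

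Taken by position, up to 5 genes with values on each side of each gene (4 on the right of LOC115264401 and of LOC115254173, which have no further gene with values on the scaffold) gave 38 different neighbours, of which 24 had enough counts to be tested. By edgeR, with adjustment over the whole table, 0 were called, and DESeq2 also called 0. By edgeR 2 of 24 had an unadjusted p under 0.05, against 4.92% of all genes tested. The log2 fold change was negative in 19 and positive in 5, with a median of -0.14, where 7706 of all 15540 genes tested were negative. Of the 19, 6 lay near LOC115253714, so the neighbours may not be independent of each other. In 4 of 24 the groups did not overlap, where the share over all genes tested was 10.3%. These were the nucleolin-like and cactus-like genes, a prostatic spermine-binding protein-like gene (LOC115253794) and a GINS protein PSF1-like gene (LOC109429911).

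**Figure D5:**
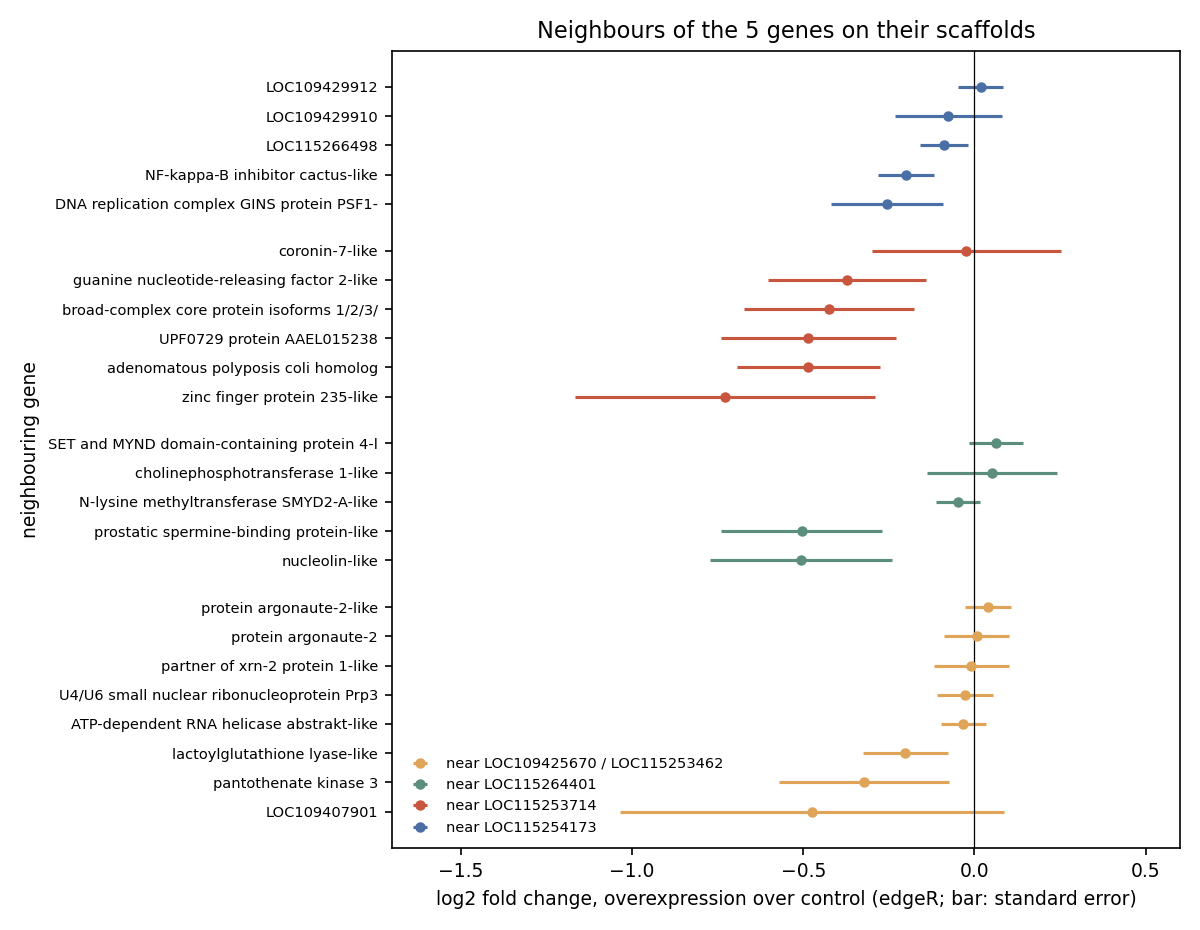
Log2 fold change of overexpression over control (x axis, points with standard error from edgeR) for the 24 tested neighbours (y axis), coloured by the gene they lie near. Values lie between -0.73 and 0.06, and those near LOC115253714 are all below 0.

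Likeness to other genes was measured by the overlap of profiles, that is, each gene's CPM was turned into shares over the 6 libraries and the smaller of the 2 shares was summed. Over 14500 other genes with at least 1 CPM on average, the median overlap with LOC115254173 was 90.2%. The 3 most alike were a titin-like gene (LOC109419627, 98.3%), an E3 ubiquitin-protein ligase RNF19B-like gene (LOC115269319, 97.9%) and a HEAT repeat-containing protein 1 homolog (LOC115255088, 97.8%). For LOC115253714 the median was 84.1%, and the closest were a mutS protein homolog 5-like gene (LOC109411345, 97.7%), the uncharacterized LOC115259675 (97.0%) and a phenoloxidase-activating factor 2-like gene (LOC109403188, 95.9%). For LOC115264401 the median was 46.8%, and the closest were LOC115254265 (uncharacterized, 81.7%), a nutrient amino acid transporter 1-like gene (LOC109406368, 81.1%) and LOC115256825 (uncharacterized, 79.0%). These 3 were themselves at 0 in at least 1 overexpression library, and LOC115254265 shares its start with LOC115270462, as given above.

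For the pair inside argonaute-2 the closest profiles overlapped by 85.6% or less. For LOC109425670 the median overlap was 49.999% and the closest were another nutrient amino acid transporter 1-like gene (LOC115258273, 78.6%), LOC115270433 (uncharacterized, 76.7%) and an obstructor-E-like gene (LOC109431569, 75.2%). For LOC115253462 the median was 60.0% and the closest were a titin-like gene (LOC109428909, 85.6%), LOC109400219 (uncharacterized, 81.0%) and LOC115257164 (uncharacterized, 80.2%). The overlap between LOC109425670 and LOC115253462 was 10.04%, all of it from overexpression library 2. The overlap of each with argonaute-2, which was read in all libraries, was 50.1% for LOC109425670 and 59.9% for LOC115253462, close to the medians.

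A later gene catalogue of the species, RefSeq's annotation of the AalbF5 assembly, holds 12747 (54.2%) of the gene IDs with values and 2 of the 5, LOC109425670 and LOC115253714, both as protein-coding. LOC109425670 is listed there with a different transcript and still close to argonaute-2 (LOC109425656), which is the second gene to its left. The gene between them there is LOC109413547, whose decimals complemented the pair's counts as given above. LOC115253714 keeps a transcript of the deposited table, and 0 of its 10 neighbours above are among the 5 nearest entries on either side. The entry next to it on the left there is LOC115256839, the other coronin-7-like gene named above. LOC115253462, LOC115264401 and LOC115254173 were not matched in it.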

How the data were processed

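The table as deposited holds estimated counts with 2 decimals, 1 column per library, not scaled between libraries. HISAT and Bowtie2 are named in the submitters' processing notes, without role or version. No header or label states the counting program, the genome build or the use of strand, so overlapping or antisense genes may share reads. Rows blank in all 6 libraries (10950) were left out, which left 23529 genes. All count columns belonged to a sample.

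The estimates were rounded, filtered with filterByExpr and scaled with TMM (trimmed mean of M values) in edgeR 4.0.16 (R 4.3.3), and tested with the quasi-likelihood F test over all 15540 genes left, with Benjamini-Hochberg adjustment at 0.05. All 5 genes passed the filter, 3 of them (LOC109425670, LOC115253462 and LOC115264401) only through the group in which they were high. DESeq2 1.42.0 was an alternative. CPM are rounded counts over the TMM-scaled library total, and floors cover counting error alone. A value was called whole within 0.001. SEs are the log2 fold change over the square root of F. Neighbours are up to 5 nearest genes with values on each side by start position. The fit was tested on simulated data.

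The 5 genes and all lists were chosen with earlier results of these data known. Named by rule were the 5 genes, the nearest gene on each side, the 3 genes most alike and any neighbour past the limit (0 were). The others were named after their values were seen. Marker lists were matched on gene descriptions, without names that carried receptor, melanotransferrin, activating, inhibitor, transcription factor, antichymotrypsin or neurotrypsin in the list concerned. The last pair was removed after values were seen. The 20 haemocyte genes summed to 6.13 to 9.70 CPM with overexpression and 6.55 to 8.47 CPM in controls, and the 24 follicle and eggshell genes to 6168 to 6670 CPM with overexpression and 6280 to 6428 CPM in controls. Nothing says that libraries came from separate cages or batches of females, so p-values measure the spread between these libraries, which may be technical. Library pairs differed by more than counting noise (chi-square per degree of freedom at least 4.01 over genes with whole estimates). The AalbF5 table was used for names and neighbours only, since the build of the deposited positions is not given.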

Additional observations from a re-analysis of the deposited data

How the results depend on the processing

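Differences below are overexpression minus control, in CPM. With DESeq2 size factors, library size alone or unrounded estimates, each of the 5 genes and the sum of the overlapping pair kept its direction and moved by less than 1 SD. Leaving out 1 library at a time gave 10.7 to 13.5 for LOC109425670, -16.1 to -13.4 for LOC115253462, -4.09 to -2.40 for LOC115264401, -18.0 to -13.3 for LOC115253714, -26.3 to -19.1 for LOC115254173, and -3.88 to -1.78 for the sum of LOC109425670 and LOC115253462. The count of 2 called genes was the same with either other scaling and with no filter. It was 15 with the DESeq2 Wald test, 1 with overlapping rows summed at 90% and 1 at 50% (both chosen after seeing the data), and 0 to 2 with 1 library left out. It was 0 without overexpression library 1 or 3 and without control library 1 or 2, where 707 to 808 genes had an unadjusted p under 0.05. Without overexpression library 2, the only overexpression library with LOC115253462 counts above 1, the calls were the 2 genes of the pair, which were picked for this contrast, so these calls carry no weight. Under a replicate block edgeR called 0 genes, and 713 had an unadjusted p under 0.05. The numbers did not pair the libraries, since deviations from the group means correlated at -0.01, 0.03 and 0.01. The number of neighbours called was 0 in every fit and with 2 or 10 genes on each side (0 to 0 with 1 library left out). With at least 50 in place of 10 counts required in one group, 1 gene in place of 3 was near absent from the other, and with exactly 0 counts in the other it was again 3. Over all, 84 values were recomputed, of which 75 kept their direction and size and 9 moved. This tally is no measure of robustness. Many of the 75 were differences of the 5 genes, picked because their groups differed, or the neighbour count of 0. Since the groups of these genes did not overlap, leaving out a library could not reverse them. The values that moved were counts of called genes or of genes near absent from one group. The comparison with protein-similar copies was not run, because no protein sequences were used here, and levels near 3 counts per group are limited by depth.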
